A study of Mus musculus with 36 samples.

Results

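The nuclear cap-binding complex and its adaptors were represented by 5 genes, Ncbp1, Ncbp2, Phax, Srrt and Zc3h18, out of 18419 genes listed in all 6 tables of the series and 22979 listed in any. The genes were matched by symbol, and all 5 were listed in every table. The family was selected on a measured value, the strong rise of Phax read counts following METTL3 depletion. For that reason, every value of the 5 genes that compares the arms of the METTL3 line is a description without a test, whereas the YTHDC1 and ZCCHC8 lines, which the choice did not use, were tested.

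Capped RNA in the nucleus is bound by the cap-binding complex, a heterodimer in which NCBP2 (CBP20) holds the cap and NCBP1 (CBP80) stabilizes the grip and forms the platform for partner proteins. The partners help to decide the fate of the RNA. SRRT (ARS2) bridges the complex to factors for export, processing or decay, PHAX links it to the export receptor CRM1 so that spliceosomal small nuclear RNA (snRNA) precursors leave the nucleus, and ZC3H18 connects it to the NEXT complex, which passes RNA to the nuclear exosome. PHAX and ZC3H18 are thought to compete for the same ARS2-bound complex.

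The data were SLAM-seq libraries of total RNA from mouse embryonic stem cells (mES cells) of mixed Mus castaneus and 129 background. In SLAM-seq, the analog 4-thiouridine (4sU) enters RNA made during a pulse, and chemical conversion makes it read as C in place of T. All cells carried a TetOn promoter that drives Xist from one X chromosome, with a Bgl stem-loop array in Xist, and all received 1 µg/ml doxycycline, which began 20 h ahead of a 4 h pulse of 500 µM 4sU and continued through it. Each of the 3 lines was 1 clone in which 1 protein bore an FKBP12 F36V degron tag, namely METTL3 (clone 12D), the m6A methyltransferase, YTHDC1 (clone Y12H), a nuclear m6A reader, or ZCCHC8 (clone Z12H), a scaffold of NEXT. Within each line, the Ctrl arm received doxycycline alone and the dTAG arm also received dTAG-13, beginning 2 h before doxycycline. RNA was taken after 0, 90 or 180 min of chase with 50 mM uridine, with 2 replicates of each of 18 groups, hence 36 libraries, of which 12 belonged to each line and 6 to each of its arms. The study's methods state for its culture experiments that a biological replicate was 1 batch of cells whose wells were divided among conditions, so a replicate number may tie the arms together. The labels do not say so for these libraries, and p-values measure the spread between them. As RNA was measured in bulk, fewer cells of a type and less RNA per cell cannot be told apart.

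Depth was 5274684 to 18652000 reads per library, and it was lowest in the ZCCHC8 line (5274684 to 10257631 reads). The degron removes protein, so mRNA of the tagged gene does not check the labels. It was not past the threshold for Mettl3 and Zcchc8 in their own lines (edgeR adjusted p = 0.942 and 0.436), and Ythdc1 rose in its own line by 0.60 log2 units (SE 0.095, edgeR adjusted p = 0.00488). All 7 embryonic stem cell markers were expressed, with a summed level of 2219 to 3816 counts scaled to library size (CPM). The 7 markers of fibroblasts, the feeder cells of these cultures, summed to 5.83 to 27.8 CPM, with Postn, Lum, Col3a1 and Dcn at medians of 0 to 0.390 CPM and Col1a2, Col1a1 and Thy1 at 3.18, 4.76 and 7.25 CPM, and the ranges of the arms overlapped in every line for both lists. In the ZCCHC8 line, 3 of 7 stem cell markers rose, among them Tdgf1 and Dppa5a, where 20.1% of all genes rose. Replicates of the METTL3 and YTHDC1 lines stood further apart than those of the ZCCHC8 line, as their counts gave a chi-square of 20.5 to 78.4 per degree of freedom, against 2.46 to 4.52. A chi-square on raw counts also grows with depth, which was lowest in the ZCCHC8 line, so part of the gap may come from depth.

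METTL3 methylates adenosines in a consensus of which GGACT, written as DNA, is a common form, so the mature RNAs were read for these letters on the transcribed strand. In the longest coding transcript of GENCODE M21 (mm10), GGACT occurred 3 times in Phax, 6 times in Ncbp1, 5 times in Ncbp2, 3 times in Srrt and 5 times in Zc3h18. Per kilobase this was 1.54, 1.99, 2.42, 0.992 and 1.31, compared with a median of 1.05 over 16996 coding genes, of which 91.6% hold at least 1 match. Ncbp2 stood at the 94.1 percentile of density and Srrt at the 46.3 percentile. For 4 of the genes, the match closest to the end of the coding sequence is shown, with GGACT in capitals. This stretch of an mRNA is where m6A is most often found. All 3 matches of Phax lie in coding sequence, and no window of Phax is shown here. A match is a description and not a methylated site, and m6A itself was not analysed here.
Ncbp1: tacaaccgagGGACTatccccaggg
Ncbp2: agtatcgggaGGACTacgatgctgg
Srrt: cctgaccccaGGACTtccctaccca
Zc3h18: gaacacttctGGACTacaggcacca
Of these windows of 25 bases, that of Ncbp1 (chr4:46172318-46172342, plus strand) lies in the 3′ UTR, 327 bases beyond the last coding base. That of Ncbp2 (chr16:31956949-31956973, plus strand) lies in coding sequence, 46 bases before its end. That of Srrt (chr5:137296282-137296306, minus strand) is also coding, 276 bases before the end, and that of Zc3h18 (chr8:122417074-122417098, plus strand) lies in the 3′ UTR, 415 bases beyond it.

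Levels were compared between genes per length, as library-scaled reads per kilobase (RPKM) over the 18 Ctrl libraries. Srrt was the most abundant, at 118 ± 21.4 RPKM (SD, n = 18; range 74.8 to 152). Ncbp2 followed at 63.8 ± 10.1 RPKM, Zc3h18 at 55.1 ± 11.3 RPKM, Phax at 54.1 ± 7.36 RPKM and Ncbp1 at 47.9 ± 8.81 RPKM (SD, n = 18). The ranges of these last 4 genes overlapped, with 44.7 to 84.2 RPKM for Ncbp2 and 34.9 to 63.0 RPKM for Ncbp1, the subunits of the heterodimer. The spread covers 3 lines and 3 chase times. All genes were measured in the same libraries, and their order was not tested. All 5 were well expressed, between the 90.9 and 96.9 percentiles of 18419 genes. Over all 36 libraries their raw counts ran from 393 reads for Phax in 1 ZCCHC8 library to 5409 reads for Phax in 1 METTL3 library.

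The genes also differed in how much of their RNA was new. GRAND-SLAM gives the new-to-total ratio, the share of a gene's RNA that was made while label was present. In Ctrl libraries at the end of the pulse, Phax had a ratio of 0.898 ± 0.0222 (SD, n = 6 over the 3 lines), so that nearly all of its RNA was recent. Zc3h18 was at 0.587 ± 0.0486 and Ncbp2 at 0.452 ± 0.0316, whereas Srrt was at 0.255 ± 0.0238 and Ncbp1 at 0.206 ± 0.0228 (SD, n = 6 each). The ranges of the 5 genes did not overlap except for Srrt and Ncbp1, whose ranges overlapped slightly (0.220 to 0.286 against 0.160 to 0.223). Among 7011 genes with enough reads and label in every library, Phax lay at the 83.5 to 89.8 percentiles of the ratio, Srrt at the 14.1 to 22.2 percentiles and Ncbp1 at the 7.66 to 12.5 percentiles. The snRNA export adaptor was therefore the most labelled of the family, and the large cap-binding subunit the least.

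Phax (ENSMUSG00000008301, chromosome 18, 56562443 to 56587712, plus strand, mm10) encodes the phosphorylated adaptor for snRNA export. In the METTL3 line, its lowest, median and highest levels were 89.9, 106 and 134 CPM among Ctrl libraries, compared with 232, 289 and 308 CPM following depletion. The arms did not overlap, and dTAG was higher in 6 of 6 pairs of libraries with the same chase time and replicate number. The log2 fold change was 1.35 (SE 0.11), at the 98.7 percentile of 14413 genes, of which edgeR called 20.1%, and single pairs reached up to 1.65. This is the value on which the family was chosen, and nothing is read from that share. Aldh7a1, which lies on the opposite strand and shares 300 exonic bases with Phax, was at 125 ± 12.2 CPM without and 112 ± 13.3 CPM with dTAG-13 (SD, n = 6; log2 fold change -0.15, edgeR adjusted p = 0.274).

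**Figure D1:**
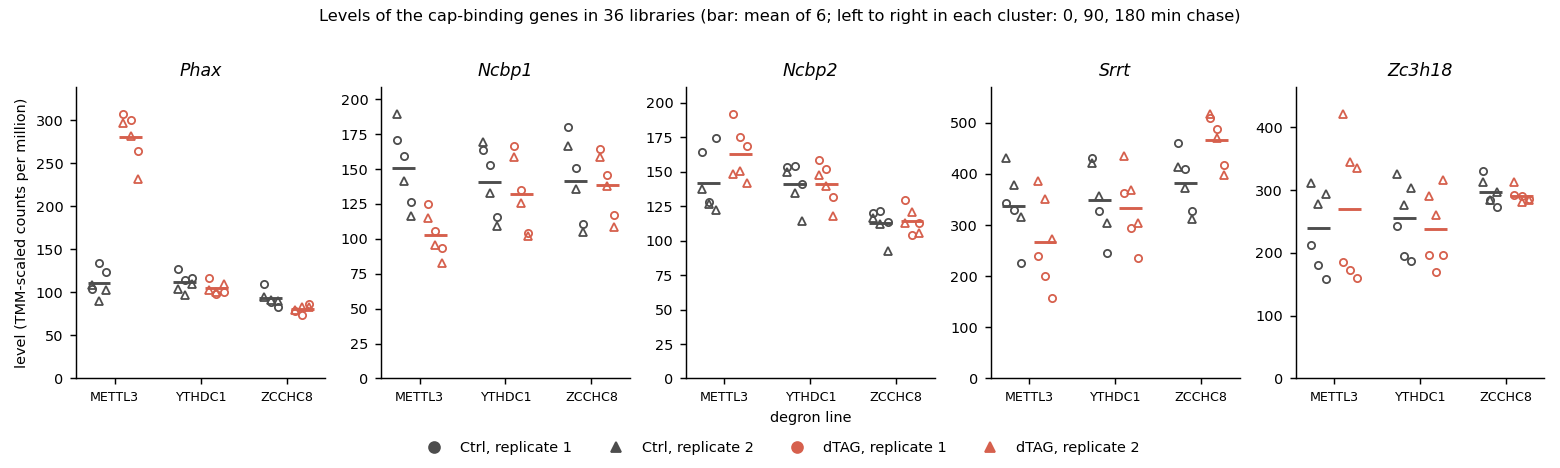
Level of each gene in TMM-scaled CPM (y axis, from 0) in the 3 degron lines (x axis), with 1 point per library, grey for Ctrl and red for dTAG, circles for replicate 1 and triangles for replicate 2, and a bar for the mean of 6. Phax libraries with dTAG in the METTL3 line sit between 232 and 308 CPM, above every other Phax library, Srrt is highest with dTAG in the ZCCHC8 line, and Zc3h18 separates by replicate in the METTL3 and YTHDC1 lines.

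At the end of the pulse, the arms of the METTL3 line differed in Phax mainly by unlabelled, old RNA. At 0 min of chase, the new-to-total ratio of Phax was 0.879 and 0.922 in Ctrl replicates 1 and 2 of the METTL3 line, with posterior intervals (0.05 to 0.95 quantiles) of 0.852 to 0.902 and 0.900 to 0.941. With dTAG it was 0.403 and 0.364, with intervals of 0.388 to 0.419 and 0.351 to 0.378. Multiplying the ratio by the level gave 95.8 ± 5.78 CPM of new and 10.5 ± 2.99 CPM of old Phax RNA for Ctrl, whereas the dTAG arm held 116 ± 11.3 CPM of new and 186 ± 3.51 CPM of old RNA (SD, n = 2). New RNA was thus 1.35 and 1.08 times the Ctrl level in replicates 1 and 2, whereas old RNA was 14.5 and 22.4 times it. At 180 min, unlabelled RNA also includes RNA made during the chase, so it is not the same pool as at 0 min. In Ctrl, unlabelled Phax RNA went from 12.7 and 8.43 CPM at 0 min to 71.5 and 52.6 CPM at 180 min. At that time labelled RNA with dTAG was 2.29 and 2.42 times and unlabelled RNA 2.03 and 2.11 times the Ctrl level. Such products carry the error of both measures, and the small old fraction in Ctrl rests on the distance of the ratio from 1.

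**Figure D2:**
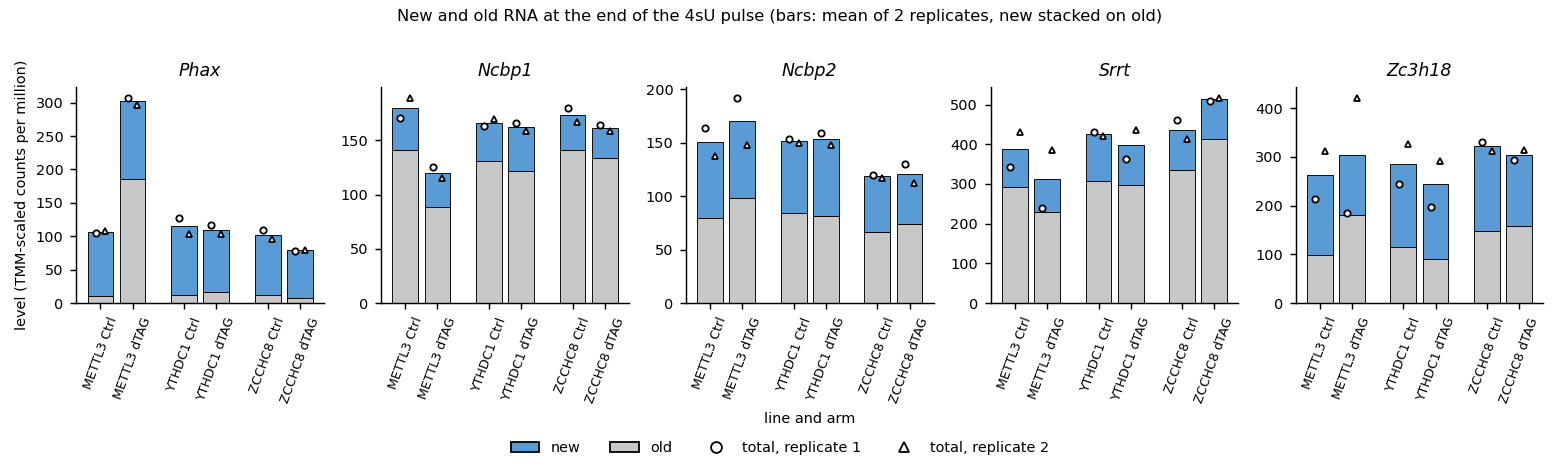
New RNA (blue) stacked on old RNA (grey), each as the mean of 2 replicates in TMM-scaled CPM (y axis, from 0), at 0 min of chase for each line and arm (x axis), with points for the total of each replicate. Old Phax RNA stands at 186 CPM with dTAG in the METTL3 line compared with 10.5 CPM in its Ctrl arm, while its new RNA is 116 and 95.8 CPM.

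Label on Phax also behaved differently over the chase in the METTL3 line. In Ctrl, the ratio went from 0.879 and 0.922 at 0 min through 0.716 and 0.860 at 90 min to 0.421 and 0.488 at 180 min. With dTAG it went from 0.403 and 0.364 through 0.444 and 0.465 to 0.450 and 0.522, so that it did not decline in either replicate. The T-to-C rate, the share of sequenced T positions read as C, was also lower with dTAG at 0 min and higher at 180 min, at 6.99% and 8.07% at 0 min and 2.40% and 2.65% at 180 min in Ctrl, and 2.98% and 3.47% at 0 min and 2.94% and 4.02% at 180 min with dTAG, where replicate 1 stayed nearly level. The widest 95% Wilson interval of any Phax rate was 7.68% to 8.62%, and it covers counting error only. The slope of the log2 ratio differed between arms by 0.44 per h (SE 0.093), at the 99.9 percentile of 8289 genes, and the ratio itself by -0.64 on the log2 scale averaged over the chase (SE 0.16), against a median of -0.15 over all genes. The median ratio of the 7011 genes at 0 min was 0.567 and 0.571 in Ctrl and 0.504 and 0.462 in dTAG libraries of this line, so its libraries differed in label in general. Relative to the median gene of each library, the Phax ratio differed by -0.43 (SE 0.15) and the slope by 0.41 (SE 0.045).

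In the other 5 arms, Phax lost label over the chase in both replicates. A log-linear fit of its ratio gave a half-life of label of 183 ± 18.8 min for METTL3 Ctrl (SD, n = 2). In the YTHDC1 line it was 152 ± 23.8 min without and 151 ± 8.80 min with dTAG-13 (SD, n = 2). In the ZCCHC8 line it was 328 ± 135 min without and 278 ± 0.342 min with dTAG-13 (SD, n = 2). Relative to the median gene of each library, the Ctrl slopes of replicates 1 and 2 lay close together, at -0.21 and -0.20 per h for ZCCHC8, -0.23 and -0.21 for METTL3 and -0.24 and -0.28 for YTHDC1, and the half-life was 268 ± 29.7 min over these 6 curves. The T-to-C rate gave shorter half-lives, of 114 ± 3.32, 101 ± 14.9 and 135 ± 27.1 min in the Ctrl arms of the METTL3, YTHDC1 and ZCCHC8 lines (SD, n = 2). These are half-lives of label and not of the RNA, and they depend on the measure used.

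**Figure D3:**
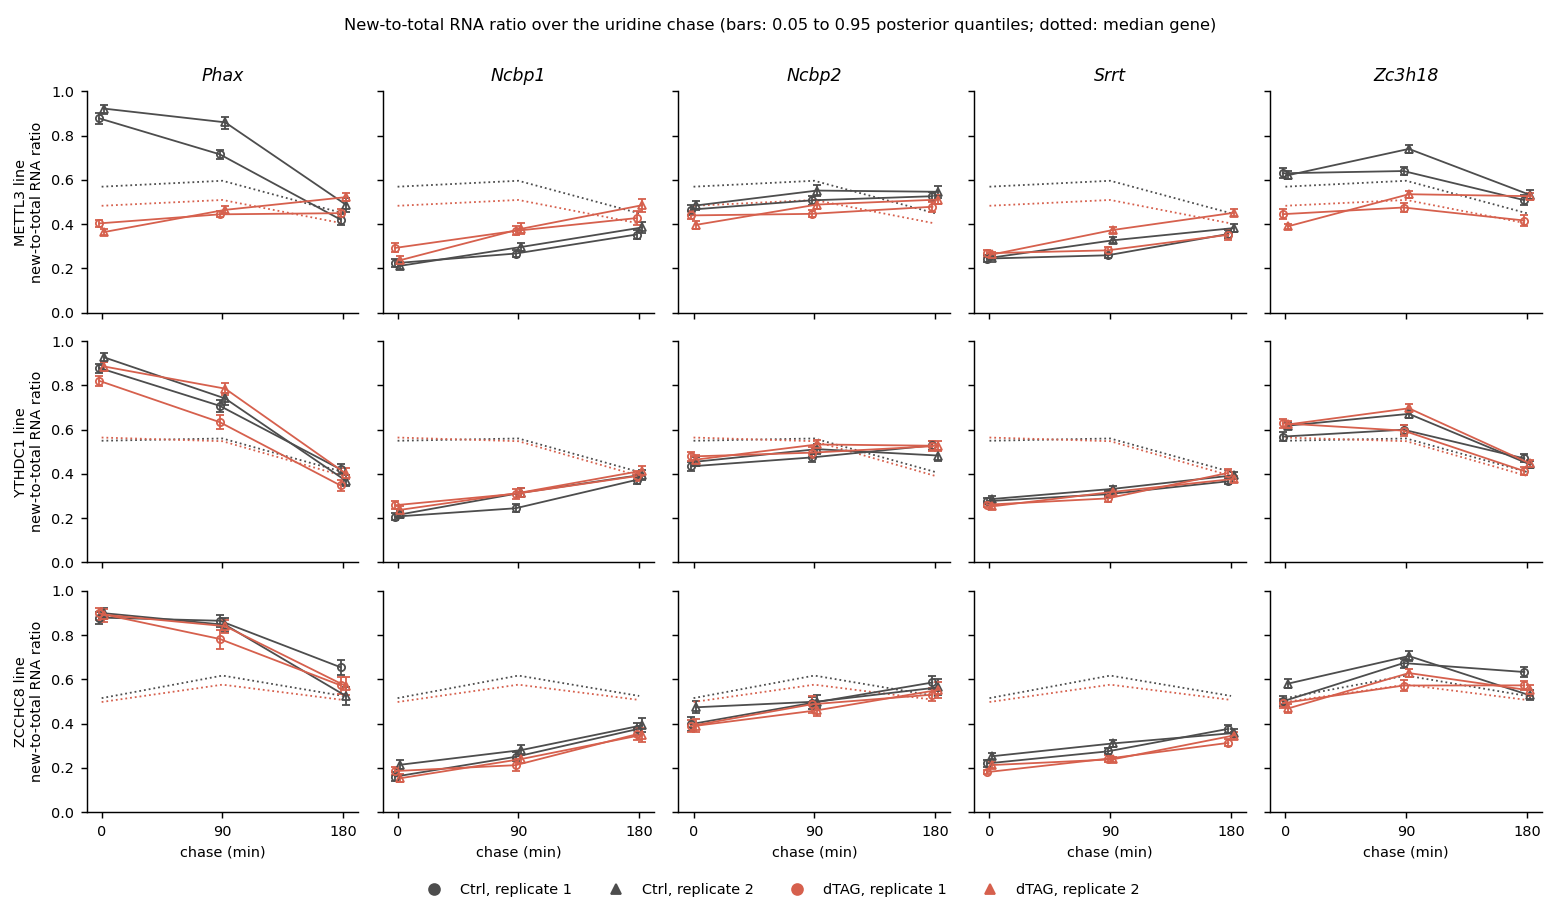
New-to-total RNA ratio (y axis, 0 to 1) against minutes of chase (x axis) for each gene (columns) and line (rows), grey for Ctrl and red for dTAG, with 1 line per replicate, bars for the 0.05 to 0.95 posterior quantiles and a dotted line for the median of 7011 genes in each arm. Phax declines in every panel from 0.821 or more at 0 min except with dTAG in the METTL3 line, where it begins at 0.364 and 0.403, and Ncbp1 and Srrt rise from low ratios throughout.

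Phax was not higher in the libraries of the other depletions. In the YTHDC1 line, its lowest, median and highest levels were 97.2, 112 and 128 CPM among Ctrl and 98.5, 102 and 116 CPM among depleted libraries, which overlapped, and it was not past the threshold (log2 fold change -0.09, SE 0.070, edgeR adjusted p = 0.602). Among the ZCCHC8 libraries, Phax was at 83.5, 91.1 and 109.9 CPM for Ctrl and at 73.9, 81.2 and 86.9 CPM for dTAG, lower with dTAG in 5 of 6 pairs. It fell by 0.16 log2 units (SE 0.055, edgeR adjusted p = 0.0268). The call was lost at a similar size without replicate 2 (-0.19, SE 0.088, adjusted p = 0.126), without the 90 min libraries (-0.18, SE 0.074, adjusted p = 0.0817) and with chase libraries summed (-0.15, SE 0.062, adjusted p = 0.106). Without the 0 min libraries the size was smaller (-0.08, SE 0.058, adjusted p = 0.294). The overlapping Aldh7a1 also fell in this line, by 0.17 (SE 0.057, edgeR adjusted p = 0.0201), and whether reads were counted by strand is not given in the sources used here.

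Srrt (ENSMUSG00000037364, chromosome 5, 137295704 to 137307674, minus strand), the gene of the ARS2 bridge, had the smallest adjusted p of the family outside the METTL3 line. Following ZCCHC8 depletion, its lowest, median and highest levels went from 312, 390.2 and 460.5 CPM to 397, 479 and 518 CPM, and it was higher with dTAG in 6 of 6 pairs although the ranges of the arms overlapped. It rose by 0.33 log2 units (SE 0.045, edgeR adjusted p = 1.84e-06), with single pairs from 0.14 to 0.35. The 2 calls among the 5 members of the family, Srrt higher and Phax lower, compare with 39.6% of 13962 genes called in this line, so the share is near the background. The same gene in the YTHDC1 line was at 246, 342 and 431 CPM among Ctrl and at 236, 333 and 435 CPM among depleted libraries, with no call (log2 fold change -0.05, SE 0.10, edgeR adjusted p = 0.869). The difference between the ZCCHC8 and YTHDC1 responses was 0.33 (SE 0.20, edgeR adjusted p = 0.305) and did not pass the threshold over all 36 libraries. With the replicate number as a block, the same difference was 0.34 (SE 0.083, edgeR adjusted p = 0.00161) and did pass it, as did 32.3% of all genes. It also passed without replicate 1 (0.34, edgeR adjusted p = 3.26e-05), as did 29.2% of all genes. Without replicate 2 it passed as well (0.43, edgeR adjusted p = 0.0129), as did 11.4% of all genes. By the test without the block, 0 of 5 members differed between these responses (0 also at an unadjusted p under 0.05), compared with 14.4% of 15101 genes.

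The new-to-total ratio of Srrt in the ZCCHC8 line was 0.220 and 0.253 for Ctrl and 0.181 and 0.213 for dTAG at 0 min, and it was lower with dTAG in 6 of 6 pairs over the chase. The mean difference was -0.23 on the log2 scale (SE 0.066), at the 1.88 percentile of 7251 genes, but it did not pass the threshold (unadjusted p = 0.00241, limma adjusted p = 0.0808). Measured as T-to-C rate, it was -0.30 (SE 0.072) and passed (limma adjusted p = 0.0307), but relative to the median gene of each library the rate did not (-0.17, SE 0.065, limma adjusted p = 0.253). At 0 min, new Srrt RNA was 103 ± 2.13 CPM without and 101 ± 12.8 CPM with dTAG-13, and old RNA was 334 ± 35.8 and 412 ± 6.77 CPM (SD, n = 2). In the METTL3 line the order of arms was the opposite, with Srrt at 226, 336 and 431 CPM among Ctrl and 157, 256 and 385 CPM among depleted libraries, lower in 6 of 6 pairs (log2 fold change -0.32, SE 0.20). The size depended on the replicate there, with pairs of replicate 1 from -0.72 to -0.52 and pairs of replicate 2 from -0.22 to -0.10.

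Ncbp1 (ENSMUSG00000028330, chromosome 4, 46138613 to 46172403, plus strand), the large subunit, was lower in the METTL3 line, where Phax was higher. Its lowest, median and highest levels were 116, 150.4 and 189.6 CPM among Ctrl and 82.5, 100.4 and 125 CPM among depleted libraries, lower with dTAG in 6 of 6 pairs, and the ranges overlapped. The log2 fold change was -0.54 (SE 0.084), at the 9.82 percentile, with single pairs from -0.72 to -0.44. Its new-to-total ratio was higher with dTAG in 6 of 6 pairs, by 0.33 on the log2 scale (SE 0.084), against the median of -0.15 for all genes, and by 0.55 (SE 0.064) relative to the median gene of each library. At 0 min, old Ncbp1 RNA was 141 ± 11.9 CPM without and 88.2 ± 0.620 CPM with dTAG-13, and new RNA was 39.1 ± 1.38 and 31.9 ± 6.61 CPM (SD, n = 2). Tstd2, whose start lies 81 bases from that of Ncbp1 on the other strand, was at 47.9 ± 12.5 and 49.6 ± 13.6 CPM in the same arms (SD, n = 6; log2 fold change 0.06, edgeR adjusted p = 0.827). It shares 82 exonic bases with Ncbp1, Xpa shares 77 with it and Senp5 shares 131 with Ncbp2, all on opposite strands, and none of these 3 neighbours passed the threshold in any line by edgeR.

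Ncbp1 was not called in the other lines. Its log2 fold change was -0.09 in the YTHDC1 line (SE 0.057, edgeR adjusted p = 0.460), where 5 of 6 pairs were lower, and 0.02 in the ZCCHC8 line (SE 0.047, edgeR adjusted p = 0.735), where 3 of 6 were. The ratio of new to total Ncbp1 RNA was higher with dTAG in 6 of 6 pairs of the YTHDC1 line (0.16 on the log2 scale, SE 0.068, unadjusted p = 0.0353, limma adjusted p = 0.329) and lower in 5 of 6 pairs of the ZCCHC8 line (-0.17, SE 0.077, unadjusted p = 0.0464, limma adjusted p = 0.292). Neither difference passed the threshold.

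Ncbp2 (ENSMUSG00000022774, chromosome 16, 31948513 to 31961781, plus strand), the cap-binding subunit proper, was called in none of the tested comparisons over all libraries. In the METTL3 line its median level was 133 CPM for Ctrl and 159 CPM for dTAG, with ranges of 122 to 174 and 142 to 192 CPM that overlapped, and dTAG was higher in 5 of 6 pairs (log2 fold change 0.21, SE 0.12). In the YTHDC1 line the medians were 145 and 144 CPM (log2 fold change 0.01, SE 0.067, edgeR adjusted p = 0.984), and 115 and 113 CPM in the ZCCHC8 line (0.06, SE 0.056, edgeR adjusted p = 0.399), where it was called without replicate 1 (0.13, adjusted p = 0.0456). Its new-to-total ratio in the METTL3 line was lower with dTAG in 6 of 6 pairs (-0.16 on the log2 scale, SE 0.082), but relative to the median gene of each library the sign turned (0.05, SE 0.055). The gene 0610012G03Rik, whose start lies 19 bases away on the opposite strand, rose in the METTL3 line by 0.48 (SE 0.12, edgeR adjusted p = 0.0144), from 27.7 ± 2.49 to 38.2 ± 4.40 CPM (SD, n = 6).

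Zc3h18 (ENSMUSG00000017478, chromosome 8, 122376609 to 122417360, plus strand), which encodes the link to NEXT, stood apart by replicate number in the METTL3 and YTHDC1 lines. For METTL3 it was higher in replicate 2 than in replicate 1 in 6 of 6 groups, by 0.55 to 1.18 on the log2 scale, and for YTHDC1 in 6 of 6 groups, by 0.42 to 0.71. In the ZCCHC8 line the replicates lay within -0.08 and 0.12 of each other. Its lowest, median and highest levels in the METTL3 line were 159, 246 and 312 CPM among Ctrl and 160.0, 260.4 and 422 CPM among depleted libraries, with 4 of 6 pairs higher (log2 fold change 0.18, SE 0.29), and the sign depended on the replicate (0.31 without replicate 1, -0.04 without replicate 2). It was not called in the YTHDC1 line (-0.09, SE 0.19, edgeR adjusted p = 0.881) nor in the ZCCHC8 line, where NEXT itself was targeted (0.01, SE 0.043, edgeR adjusted p = 0.834), at medians of 291 and 288 CPM without and with dTAG-13. Gm20388, whose span on the same strand covers all of Zc3h18 but shares no exonic base with it, fell in the ZCCHC8 line by 1.26 log2 units (SE 0.071, edgeR adjusted p = 8.2e-13), from 55.2 ± 4.67 to 22.6 ± 1.97 CPM (SD, n = 6).

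The new-to-total ratio of Zc3h18 was lower with dTAG in the METTL3 line in 6 of 6 pairs. At 0 min it was 0.630 and 0.621 for Ctrl and 0.445 and 0.390 for dTAG replicates, and the difference over the chase was -0.40 on the log2 scale (SE 0.10), at the 11.1 percentile. Relative to the median gene of each library it was -0.18 (SE 0.060). In the ZCCHC8 line the ratio was lower in 5 of 6 pairs and its difference was -0.14, which did not pass the threshold (SE 0.060, unadjusted p = 0.0355, limma adjusted p = 0.255). In the YTHDC1 line, where 4 of 6 pairs were higher, the difference was 0.00 (SE 0.062).

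**Figure D4:**
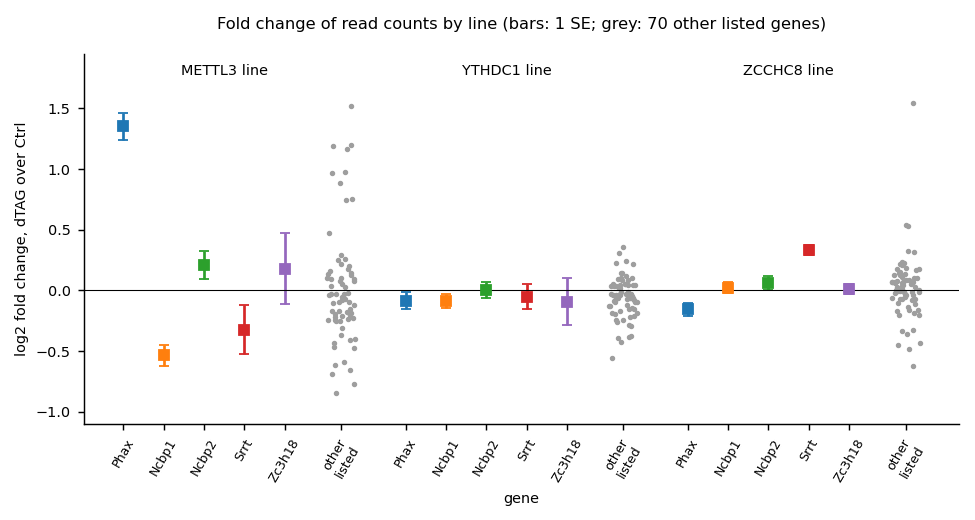
Log2 fold change of read counts, dTAG over Ctrl (y axis), for the 5 genes (x axis), set out line by line, with bars of 1 SE, and grey points for the 70 other genes of the cap pathways. In the METTL3 line Phax stands at 1.35 and Ncbp1 at -0.54, in the YTHDC1 line all 5 lie between -0.09 and 0.01, and in the ZCCHC8 line Srrt stands at 0.33 and Phax at -0.16.

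Over the family as a whole, the YTHDC1 line gave no call in read counts. By edgeR, 0 of 5 members passed the threshold (0 also at an unadjusted p under 0.05 and 0 by DESeq2), compared with 5.26% of 14199 genes. Loss of label over the chase gave 0 calls among the members and among all genes in the YTHDC1 line (limma, 0.0% of 8820 genes called, 195 at an unadjusted p under 0.05) and in the ZCCHC8 line (0.0% of 7251, 147 at an unadjusted p under 0.05). No member of the family was below 0.05 unadjusted in either. The ratio averaged over the chase gave 0 calls among the members in both lines by limma. In the YTHDC1 line 1 member was below 0.05 unadjusted and 0.306% of 8820 genes were called, and in the ZCCHC8 line 3 members were and 1.14% of 7251 genes were called.

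Levels of part of the family also moved with chase time. Ncbp1 was lower at 180 min than at 0 min in all 6 Ctrl and all 6 dTAG series of line and replicate, by a mean of -0.61 ± 0.12 and -0.54 ± 0.096 on the log2 scale (SD, n = 6). Srrt was lower in all of them too, by -0.54 ± 0.15 and -0.49 ± 0.13. Zc3h18 was at -0.22 ± 0.16 and -0.10 ± 0.16, Ncbp2 at -0.17 ± 0.18 and -0.19 ± 0.10, and Phax at -0.06 ± 0.21 and -0.08 ± 0.21 (SD, n = 6). At the same time, the new-to-total ratio of Ncbp1 and of Srrt had a positive slope in every arm, of 0.23 to 0.35 and of 0.14 to 0.25 per h on the log2 scale (means of 2 replicates), so no half-life of label could be given for either. As T-to-C rate the slopes were smaller, at 0.11 to 0.19 and 0.05 to 0.13 per h. The median ratio of the 7011 genes also rose from 0 to 90 min in some series (0.494 to 0.612 in ZCCHC8 Ctrl replicate 1) and fell in others (0.567 to 0.547 in METTL3 Ctrl replicate 1). Levels are relative to the rest of each library. Among the 36 libraries, centred within each table, Ncbp1 and Srrt varied alike (Pearson r = 0.84), and every other pair of members was between -0.45 and 0.43. These points share libraries and chase times, and no p is given.

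The genes whose levels were most like each member were sought among 7011 genes with at least 100 reads in every library, by Pearson r over the 36 libraries centred within tables. For Phax these were Chchd4 (r = 0.97), Pex13 (0.96), Timm17a (0.96), Mrpl43 (0.95) and Mif4gd (0.95). Their log2 fold changes in the METTL3 line were 0.83, 1.36, 0.65, 1.53 and 0.84, in place of 1.35 for Phax. The 36 libraries include both arms of that line, so a rise there follows in part from how the genes were sought. In the YTHDC1 line the values were -0.05, 0.08, -0.06, -0.09 and -0.02, beside -0.09 for Phax. In the ZCCHC8 line they were -0.04, -0.12, -0.07, -0.12 and -0.13, beside -0.16 for Phax. For Ncbp1 the genes most alike were Car2 and Lmnb1 (both 0.97), and for Srrt they were Tbl3 (0.97) and Pes1 (0.96). Ncbp2 was most like C1qbp and Zmat2 (both 0.79), and Zc3h18 most like Cdc42bpb (0.83) and Cactin (0.80).

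Other genes of the cap pathways were followed through 70 genes in 8 lists, all of them tested in each line. In the METTL3 line 7 rose and 8 fell by edgeR, 15 in all, compared with 20.1% of 14413 genes called, and their median log2 fold change was -0.06 against 0.01 for all genes. With the replicate number as a block, 35 were called (14 higher and 21 lower), compared with 48.5% of all genes (24.4% higher and 24.1% lower). With the chase libraries summed, 0 of the 70 and 0 of 15894 genes were called, and leaving out the libraries of 1 chase time gave 4 to 8, compared with 4.97% to 8.12% of all genes. The SMN complex, which loads snRNAs with Sm proteins once PHAX has carried them to the cytoplasm, had 4 of 9 genes higher and 0 lower (median 0.21). Among all genes of this line, 11.3% were called higher and 8.8% lower. Gemin7 rose by 1.20 log2 units (SE 0.13, edgeR adjusted p = 0.000198), from 15.6 ± 4.57 to 34.9 ± 4.20 CPM. Gemin6 rose by 1.17 (SE 0.31, adjusted p = 0.0220) and Ddx20, the helicase Gemin3, by 0.97 (SE 0.23, adjusted p = 0.0128). Of 8 genes of snRNA export and re-import, 0 rose and Rangap1, the activator of RAN GTP hydrolysis, fell by 0.44 (SE 0.14, adjusted p = 0.0494). Xpo1, the gene of CRM1, is in this list and was not called (log2 fold change -0.10, SE 0.25, edgeR adjusted p = 0.832).

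Of 16 genes of mRNA export (TREX and its partners), 1 rose and 4 fell in the METTL3 line and 11 were not called (median -0.13), beside the 20.1% of all genes called. Nxt1, the cofactor of the export receptor NXF1, rose by 1.52 log2 units (SE 0.20, edgeR adjusted p = 0.000673), from 44.3 ± 13.8 to 124 ± 20.3 CPM (SD, n = 6). The helicase gene Ddx39b fell by 0.85 (SE 0.15, adjusted p = 0.00295) and Thoc6 by 0.69 (SE 0.12, adjusted p = 0.0024). Of 7 genes that form or methylate the cap, Cmtr2, a cap methyltransferase, rose by 0.75 (SE 0.21, adjusted p = 0.0290). Of 8 genes of cytoplasmic cap binding, the eIF4E homologs Eif4e3 and Eif4e2 fell, by 0.77 (SE 0.23, adjusted p = 0.0369) and 0.61 (SE 0.094, adjusted p = 0.0013). Among 8 decapping genes, Nudt16 rose by 0.98 (SE 0.25, adjusted p = 0.0186) and Dcp1b fell by 0.66 (SE 0.15, adjusted p = 0.0117). None of 10 genes of ARS2-linked decay and processing (median 0.11) and none of 4 NELF genes (median -0.23) passed the threshold in the fit without the replicate block. Counts for single lists with the block are not given here.

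Following YTHDC1 depletion, 0 of the 70 rose and 4 fell by edgeR, compared with 5.26% of all genes (2.48% higher and 2.78% lower). With the replicate number as a block, 22 were called (2 higher and 20 lower), compared with 27.3% of all genes (13.2% higher and 14.1% lower). Without the libraries of any 1 chase time 0 were called, compared with 0.192% to 0.316% of all genes. Gemin7 fell by 0.56 log2 units (SE 0.12, edgeR adjusted p = 0.0185), the opposite direction to the METTL3 line, a difference that was not tested. Ddx39b fell by 0.38 (SE 0.066, adjusted p = 0.00822), as did Sarnp, another TREX partner, by 0.38 (SE 0.085, adjusted p = 0.0260), and the decapping scaffold Edc4 by 0.30 (SE 0.078, adjusted p = 0.0499).

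In the ZCCHC8 line 16 of the 70 rose and 11 fell by edgeR, compared with 39.6% of all genes (20.1% higher and 19.5% lower). Without replicate 2, 15 were called, compared with 24.5% of all genes. Nudt16, a snoRNA-decapping enzyme at low level, rose by 1.54 log2 units (SE 0.17, edgeR adjusted p = 1.24e-07), from 1.80 ± 0.285 to 5.18 ± 1.02 CPM (SD, n = 6). Nelfa, of the pausing complex NELF that contacts the cap-binding complex, rose by 0.54 (SE 0.059, adjusted p = 9.4e-08) in a list with 2 of 4 higher, and Pcif1, which methylates the cap-adjacent adenosine, by 0.33 (SE 0.060, adjusted p = 0.000109). Snupn, the import adaptor of snRNPs, rose by 0.32 (SE 0.088, adjusted p = 0.00527), and Dgcr8, a partner of Drosha in microRNA processing, by 0.21 (SE 0.047, adjusted p = 0.000863). Thoc2, the TREX scaffold, fell by 0.44 (SE 0.050, adjusted p = 1.75e-07), Strap of the SMN complex by 0.20 (SE 0.044, adjusted p = 0.000638) and Eif4e2 by 0.16 (SE 0.048, adjusted p = 0.00918).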

How the data were processed

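Total RNA of 36 libraries was analysed. The authors removed reads matching ribosomal RNA, aligned the rest to mm10 with STAR 2.5.2b and ran GRAND-SLAM, whose 6 tables hold 1 line and replicate each. The GRAND-SLAM version and whether counting was strand-aware are not given in the sources used here. The deposited counts are raw reads per gene. Also deposited is a fraction, the share of new RNA, as the maximum of its posterior (MAP), the posterior mean and quantiles. The deposited conversions and T coverage are sums of signal over reads, rounded to 4 significant digits, and their quotient is the T-to-C rate. A limit on mismatches upstream can remove strongly converted reads. A further 108 columns of the libraries (posterior shape parameters and 1 other quantity) were not used. Groups and chase times came from labels, and replicate numbers from the table each label names.

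Read counts were tested with edgeR 4.0.16 within each line (arm plus chase time as factors, 6 libraries an arm), after filterByExpr and TMM scaling and by the quasi-likelihood test with robust dispersion, and so was the ZCCHC8 minus YTHDC1 response over all 36 libraries. The log2 ratio was tested with limma 3.58.1 (trend, robust) for genes that reached 100 reads and a ratio of 0.02 throughout a line, as a mean difference and as an interaction with chase hours. P-values are two-sided, adjusted by Benjamini-Hochberg over all genes tested, with a threshold of 0.05. The SE of a count fold change is its size over the square root of F. CPM is scaled by TMM, and RPKM divides it by the length column of the files. For likeness, log2(CPM + 1) was used. The tests were checked on simulated data. Alternatives were RLE factors, DESeq2 1.42.0, no filter, the replicate block, leaving out a replicate or a chase time, summed chase libraries and other label measures. Deviations of the same replicate number correlated between the arms in every comparison (r = 0.362 to 0.896 over 3 chase times in each line), a pairing seen in the data, with the study's methods stating a shared cell batch per replicate for culture experiments in general, so blocked values stand beside the results they change.

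All members are named. Of each list and line, at most 3 genes past the threshold and moving one way in 6 of 6 pairs were eligible, by size. Members, lists and tests were chosen with earlier results of these data known. Software was Python 3.11.15 with matplotlib 3.10.9, scipy 1.17.1, pandas 2.3.3 and numpy 2.4.6, and R 4.3.3.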

Additional observations from a re-analysis of the deposited data

How the results depend on the processing

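Among single members, the calls that changed were those of Phax in the ZCCHC8 line, given above, of Ncbp2, which was called in that line without replicate 1 (0.13, adjusted p = 0.0456), and of Srrt in the difference between lines and in its T-to-C rate. The members called in the ZCCHC8 line numbered 2 (39.6% of all genes called), 3 without replicate 1 (37%) and 1 without replicate 2 (24.5%). The number was 1 with chase libraries summed (24.8%), without the 90 min libraries (27%) and without the 0 min libraries (33.8%). For the ZCCHC8 minus YTHDC1 response the number was 0 (14.4% of all genes). It was 1 with the replicate block (32.3%), without replicate 1 (29.2%) or without replicate 2 (11.4%). The label ratio in the ZCCHC8 line gave 0 (1.14% of all genes), and 1 with the T-to-C rate (4.25%). Of the 70 pathway genes, the METTL3 line called 15, 35 with the replicate block, 25 to 38 without a replicate, 0 with chase libraries summed, and 8, 4 and 7 without the 90, 0 and 180 min libraries, while the share of all genes called went from 20.1% to 48.5%, 40.1% to 52.3%, 0.0%, 6.31%, 4.97% and 8.12%. The YTHDC1 line called 4 of them, 22 with the block, 10 to 19 without a replicate and 0 with chase libraries summed (5.26%, 27.3%, 9.58% to 25% and 0.0% of all genes). The ZCCHC8 line called 27 of them, and 14 to 30 over its other settings (24.5% to 45.9% of all genes). The replicate block changed no other call on a member. Phax's label ratio in the METTL3 line (-0.64) was -0.43 relative to the library median and -0.34 as a T-to-C rate relative to it. Its half-life of label over 6 Ctrl curves, 221 ± 104 min, was 1098 ± 1356 min from 0 and 90 min alone. Alternatives that leave out a chase time, and the median-centred T-to-C rate, were chosen after seeing the data. The cause of these changes was not tested. The depth of the ZCCHC8 line was the lowest and limits its label values.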
